A study of Mus musculus with 10 samples.

Results

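Small nucleolar RNAs (snoRNAs) were followed by box class in 10 mouse RNA-seq libraries. Every gene was taken whose symbol starts with Snord and a digit (box C/D) or with Snora and a digit (box H/ACA), and the genes that host snoRNAs were left out. The rule found 140 of the 50559 genes in the count files, 101 of box C/D and 39 of box H/ACA. All 140 symbols were in the GENCODE annotation of GRCm39, which gave lengths from 64 to 238 bases for box C/D and from 121 to 205 bases for box H/ACA.

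The libraries came from formalin-fixed, paraffin-embedded (FFPE) tissue of 3 groups. MYC/SMARCA4 tumors (n = 4) grew in the cerebella of immunodeficient CD1nu/nu recipients that had received granule cell precursors (GCPs) of tamoxifen-induced Math1-creERT2::Smarca4fl/fl pups, transduced with a lentiviral MYC-GFP construct, and the mice were 112, 96, 89 and 79 days old (tumors 1 to 4). The GCPs were transplanted as an unsorted mixture, and a tissue punch holds recipient cells as well as tumor cells. P7 cerebella (n = 3) were whole cerebella of Math1-creERT2::Smarca4fl/fl pups that had been given tamoxifen (0.4 mg) at an age of 3 days and were taken at 7 days, so these controls carry the induced loss of Smarca4 in the Math1 lineage as well. Sonic Hedgehog medulloblastomas (SHH MB, n = 3) came from Math1-cre::Smofl/wt mice labelled as 7 days old. Age and host differ between the tumors and both other groups and cannot be told apart from the tumor itself.

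snoRNAs guide the maturation of ribosomal RNA (rRNA) in the nucleolus. Box C/D snoRNAs form a particle with fibrillarin (Fbl), Nop56, Nop58 and Snu13 and mostly guide the methylation of ribose. Box H/ACA snoRNAs bind dyskerin (Dkc1), Gar1, Nhp2 and Nop10 and mostly guide the conversion of uridine to pseudouridine. A few, among them U3, U8, U14 and U22 of box C/D and U17 of box H/ACA, are needed for cutting and folding the rRNA precursor. Most mammalian snoRNAs are released from introns of host genes, many of which encode ribosomal proteins or are noncoding, while U3, U8 and U13 have promoters of their own. MYC is known as a strong activator of ribosome production.

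Sequences of members that the comparisons turn on were read from GRCm39 and show what sets the classes apart. The first group are box C/D snoRNAs, with the C box (TGATGA) and the D box (CTGA) in capitals. Snord3a is U3, at chr10:40134463-40134676 on the plus strand; Snord118 is U8, at chr11:68964253-68964387 on the plus strand; Snord14c is a copy of U14, at chr9:40714879-40714964 on the plus strand in an intron of Hspa8; and Snord100, at chr10:23661648-23661721 on the minus strand, lies within Rps12.
Snord3a: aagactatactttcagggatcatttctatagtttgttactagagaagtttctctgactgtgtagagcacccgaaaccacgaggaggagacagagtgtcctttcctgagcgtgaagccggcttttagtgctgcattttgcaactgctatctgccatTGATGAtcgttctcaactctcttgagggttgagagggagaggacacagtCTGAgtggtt
Snord118: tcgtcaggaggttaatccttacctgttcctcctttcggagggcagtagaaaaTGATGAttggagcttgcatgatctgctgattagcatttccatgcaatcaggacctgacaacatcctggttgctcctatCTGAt
Snord14c: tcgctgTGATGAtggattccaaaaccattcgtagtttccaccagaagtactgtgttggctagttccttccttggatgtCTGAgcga
Snord100: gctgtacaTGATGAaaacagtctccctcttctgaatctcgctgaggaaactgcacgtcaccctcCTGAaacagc
The second group are box H/ACA snoRNAs, with the H box (ANANNA) and the terminal ACA in capitals. Snora73a, 1 of 2 copies of U17, is at chr4:132080086-132080290 on the minus strand within Rcc1; Snora16a is at chr4:132036775-132036911 on the plus strand within Snhg12; and Snora64 is at chr17:24939746-24939879 on the plus strand within Rps2.
Snora73a: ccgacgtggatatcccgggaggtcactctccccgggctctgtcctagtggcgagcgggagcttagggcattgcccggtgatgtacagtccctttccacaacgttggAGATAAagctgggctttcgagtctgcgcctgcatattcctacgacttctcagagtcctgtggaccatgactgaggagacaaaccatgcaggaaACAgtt
Snora16a: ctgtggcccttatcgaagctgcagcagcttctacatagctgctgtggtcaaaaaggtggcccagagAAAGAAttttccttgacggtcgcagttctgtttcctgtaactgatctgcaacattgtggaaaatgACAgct
Snora64: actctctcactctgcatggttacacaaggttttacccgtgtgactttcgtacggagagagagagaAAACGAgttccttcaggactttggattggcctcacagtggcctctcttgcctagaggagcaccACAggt
Both C/D boxes, searched on the strand of the gene with the C box in its front part (anywhere in genes over 150 bases) and the D box in the last 20 bases, were present in 74 of the 101 box C/D genes (73.3%) and in 0% of flanking windows of the same length. An H box in the central part together with an ACA at the end of the gene was present in 34 of the 39 box H/ACA genes (87.2%), against 2.56% of flanking windows. Snora73a and Snora73b differ at 7 of 205 bases, so reads may be split between these copies, and the value of each alone is uncertain.

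The libraries held between 5663491 and 9352109 counts. Myc, the transferred gene, had 152, 368, 1587 and 1016 CPM (counts scaled to library size) in tumors 1 to 4, at most 14.3 CPM in the P7 cerebella and at most 45.7 CPM in SHH MB. Smarca4 had 136 to 244 CPM in the tumors, 221 to 282 CPM in the P7 cerebella and 491 to 590 CPM in SHH MB. It did not pass the test against P7 cerebella (log2 fold change -0.30, adjusted p = 0.495, edgeR). The P7 cerebella carry the induced deletion in the Math1 lineage too, and its part in this result was not tested. In the paper, staining showed loss of SMARCA4 protein in all tumor cells, and PCR found recombined Smarca4 in tumor biopsies. RNA counts per gene are another measure than that protein. Summed markers of the granule cell lineage (6 genes) were at 600 to 1894 CPM in the tumors, 1708 to 1928 CPM in the P7 cerebella and 1754 to 2104 CPM in SHH MB. CPM values were scaled by TMM factors, which were 0.619 for tumor 1, 1.28 for tumor 3 and between 0.802 and 1.2 for the other libraries. Tumors held more mitochondrial counts (2.29 to 6.36%) than the P7 cerebella (1.43 to 1.59%) and SHH MB (1.25 to 1.52%).

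snoRNAs took a larger share of the library in every tumor than in any control. Without any scaling they made up 0.424%, 0.247%, 0.115% and 0.147% of all counts in tumors 1 to 4, against shares of 0.0315 to 0.0621% for P7 cerebella and 0.0332 to 0.0437% for SHH MB. Summed over the 101 box C/D genes, tumors 1 to 4 had 4229, 2295, 710 and 1371 CPM, the P7 cerebella had 437, 210 and 236 CPM, and SHH MB had 245, 304 and 258 CPM. Thus the lowest tumor lay above the highest control. The means were 2151 ± 1530 CPM (SD, n = 4), 294 ± 124 CPM (SD, n = 3) and 269 ± 31.3 CPM (SD, n = 3). The 39 box H/ACA genes summed to 2647, 797, 197 and 308 CPM in tumors 1 to 4, to 132, 69.3 and 92.6 CPM in the P7 cerebella and to 83.1, 104 and 74.3 CPM in SHH MB. Again all tumors were above all controls, and tumor 1 alone held most of the counts of this class among the tumors. The mean of the 4 tumors was 7.31 times that of the P7 cerebella for box C/D and 10.1 times for box H/ACA, with a wide spread among the tumors in both classes. Without tumor 1 these ratios were 4.96 and 4.43, an alternative chosen after seeing the data, so the order of the classes rested on that tumor. On the log2 scale, the mean differences were 2.65 for box C/D and 2.66 for box H/ACA. In such bulk tissue, a change in the number of cells of a type and a change in RNA per cell cannot be told apart.

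**Figure D1:**
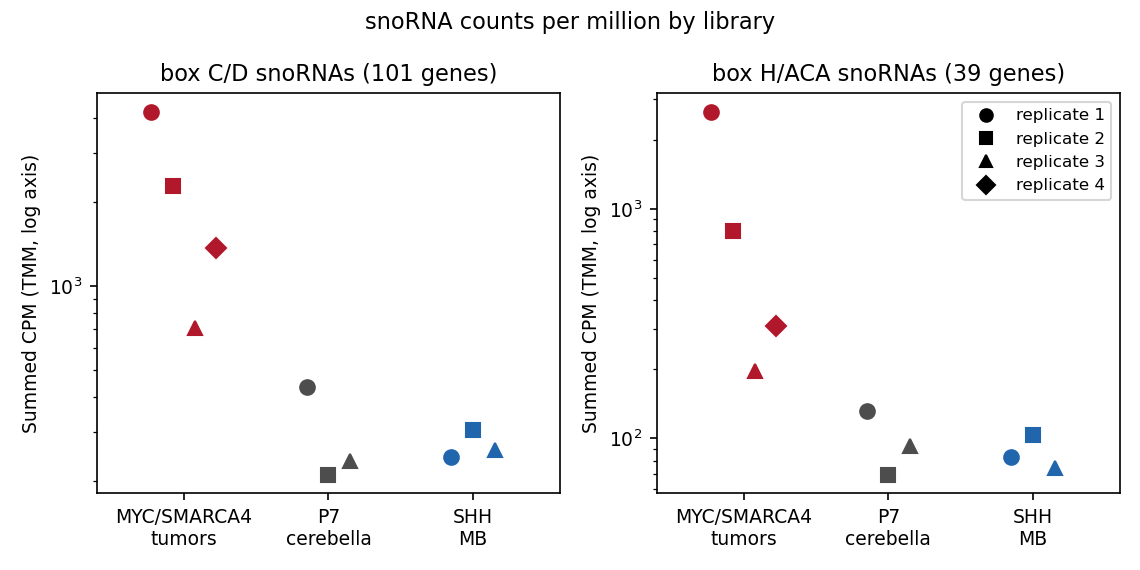
Summed CPM of the 101 box C/D (left) and 39 box H/ACA snoRNAs (right) in each library on a log axis, with a marker shape for each replicate number (the numbers pair no samples). The 4 tumors run from 710 to 4229 CPM for box C/D and from 197 to 2647 CPM for box H/ACA, above all 6 controls.

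Against the P7 cerebella, the comparison with the tissue in which the cells of origin reside, snoRNAs of both classes were called higher in the tumors and none was called lower. At an adjusted p of at most 0.05 in edgeR's quasi-likelihood test, 29 box C/D and 20 box H/ACA snoRNAs were called higher, while 3.99% of all 29952 genes tested were called higher and 2.27% lower. Of the 140 members 78 passed the filter on low counts and were tested, 51 of box C/D and 27 of box H/ACA. Since the filter can be passed through high tumor counts alone, these shares describe the members tested and not the classes. The median log2 fold change was 2.76 over the tested box C/D members and 3.32 over the tested box H/ACA members, with a median of -0.05 over all genes tested. In 38 and 21 of them, respectively, the 4 tumors lay above the 3 P7 cerebella, against 10.3% of all genes tested, and in none did they all lie below, against 10.7%. A positive log2 fold change was found in 50 of 51 and 27 of 27 members (48.1% of all genes tested). At an unadjusted p under 0.05, 48 and 26 members were higher or lower, compared with 15.3% of all genes higher and 9.97% lower. Under the study's stricter rule, in which the adjusted p may not exceed 0.01 and the log2 fold change must reach 2.5, the calls were 1 and 3 (0.0901% of all genes higher and 0.2% lower).

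Leaving the filter aside, 79 of the 101 box C/D members had a higher mean CPM in the tumors than in the P7 cerebella, 6 had a lower one and 16 had no count in either group. For box H/ACA these numbers were 33, 1 and 5 of 39. Some members reached the filter's level in at least 3 control libraries, so that the tumors did not decide their entry. Of these, 15 of 24 box C/D and 15 of 21 box H/ACA snoRNAs were called higher. The share over all genes was computed neither for this selection nor for the unfiltered means. The 3.99% of all genes tested is therefore not a like baseline for these counts. The calls depended on single libraries: without P7 cerebellum 1, 2 or 3 the count was 3, 0 and 0 for box C/D and 1, 0 and 3 for box H/ACA, while without tumor 1 it was 27 and 20. Without tumor 2 the counts were 17 and 10, and without SHH MB library 1, 2 or 3, which add to the estimate of the spread, they were 16 and 9, 15 and 8, and 15 and 9. Over the 10 fits that each left out one library, the median stayed between 2.2 and 2.93 for box C/D and between 2.26 and 3.5 for box H/ACA.

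**Figure D2:**
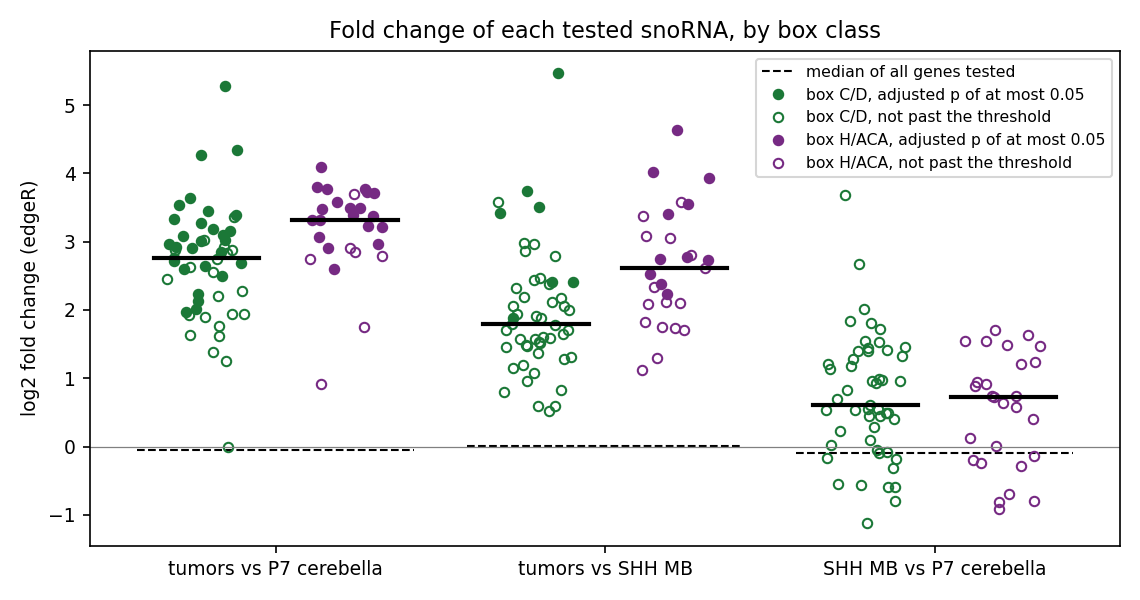
log2 fold change of each of the 78 tested snoRNAs in the 3 comparisons, split by box class, with filled points past an adjusted p of 0.05, black bars at the class medians and dashed lines at the median of all genes tested. Both tumor comparisons lie above 0 for nearly all members, with medians of 2.76 and 3.32 against P7 cerebella and 1.80 and 2.61 against SHH MB, whereas SHH MB against P7 cerebella has no filled point.

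U3, which directs the first cuts of the rRNA precursor, was the most abundant snoRNA per length, with a mean of 3258 CPM per kilobase over all libraries. Snord3a, the main U3 gene, had 2825, 1583, 492 and 1082 CPM in tumors 1 to 4, 321, 127 and 147 CPM in the P7 cerebella and 118, 160 and 117 CPM in SHH MB. The tumors were separate from both control groups, and tumor 3 was the nearest to them. Its log2 fold change was 2.91 (SE 0.57, adjusted p = 0.0153, edgeR) against P7 cerebella and 3.50 (SE 0.59, adjusted p = 0.0057, edgeR) against SHH MB. An exact two-sided permutation test of log2 CPM gave p = 0.0571 and p = 0.0286, the latter being the smallest value that 4 against 3 libraries allow. Together, Snord3a and the Snord3b genes made up 73.7 to 83.7% of box C/D counts in the tumors, 63.7 to 78.6% in the P7 cerebella and 46.4 to 55.9% in SHH MB.

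Of the further U3 copies, Snord3b-ps1 had 318, 124, 19.3 and 43.6 CPM in tumors 1 to 4, at most 12.5 CPM in the P7 cerebella and at most 3.77 CPM in SHH MB, and its log2 fold change of 5.47 (SE 1.02, adjusted p = 0.0102, edgeR) against SHH MB was the highest of all members in either tumor comparison. Snord3b-ps2 was called higher as well, with a log2 fold change of 3.19 against P7 cerebella (adjusted p = 0.0408, edgeR) and 3.74 against SHH MB (adjusted p = 0.0288, edgeR). The 4 Snord3b genes within Tex14 are identical in sequence, so reads cannot be assigned to one of them. Snord3b1 had no count in any library, Snord3b2 had 20 to 154 counts in the tumors and 8 to 21 in the P7 cerebella, and Snord3b3, with 3 to 19 and 4 to 19 counts, was the only tested member without a positive log2 fold change against P7 cerebella (-0.01, SE 0.74).

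U8 (Snord118), which acts in the maturation of the large ribosomal subunit RNA, had 36.9, 22.9, 6.72 and 8.42 CPM in tumors 1 to 4 and 4.09, 2.29 and 2.00 CPM in the P7 cerebella. It was higher than in the P7 cerebella with a log2 fold change of 2.71 (SE 0.58, adjusted p = 0.021, edgeR). SHH MB had 4.98, 6.72 and 6.96 CPM, which overlapped with tumor 3, and the log2 fold change of 1.57 did not pass the test (adjusted p = 0.13, edgeR). U13 (Snord13), which guides an acetylation of small-subunit rRNA, had 10.9, 8.10, 3.08 and 5.25 CPM in the tumors and at most 1.33 CPM in the P7 cerebella and 1.71 CPM in SHH MB. It was called higher in both comparisons, with log2 fold changes of 2.64 (adjusted p = 0.0171, edgeR) and 2.42 (adjusted p = 0.0236, edgeR).

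U14, required for small-subunit rRNA, is encoded by Snord14a within Rps13 and by Snord14c, Snord14d and Snord14e within Hspa8, the gene of a heat shock cognate chaperone. The latter 3 were called higher than in the P7 cerebella, with log2 fold changes of 3.53, 3.02 and 2.93 (adjusted p = 0.0285, 0.0219 and 0.0219, edgeR), whereas none of the 3 passed the test against SHH MB. For Snord14c, the counts were 32, 33, 11 and 23 in the tumors, 5, 5 and 0 in the P7 cerebella and 5, 13 and 5 in SHH MB. Snord14a did not pass the filter, with 6 to 11 counts in the tumors and 3, 0 and 0 in the P7 cerebella. U22 (Snord22), within the noncoding gene Snhg1, had 84.8, 47.7, 19.7 and 17.1 CPM in the tumors, 6.74, 6.11 and 9.56 CPM in the P7 cerebella and 16.8, 14.5 and 12.6 CPM in SHH MB. The tumors were above both control groups, and the log2 fold change was 2.5 against P7 cerebella (SE 0.52, adjusted p = 0.0186, edgeR) and 1.52 against SHH MB (SE 0.49, adjusted p = 0.103, edgeR).

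U17 is the box H/ACA snoRNA that acts in processing of the rRNA precursor rather than in pseudouridylation. It held 39.6 to 51% of box H/ACA counts in the tumors, 37.13 to 49.85% in the P7 cerebella and 20.46 to 32.12% in SHH MB. Snora73a had 625, 168, 48.1 and 80.3 CPM in tumors 1 to 4, 38.3, 17.1 and 18.4 CPM in the P7 cerebella and 13.5, 18.6 and 10.1 CPM in SHH MB. Its log2 fold change was 3.22 (SE 0.78, adjusted p = 0.0318, edgeR) against P7 cerebella and 4.03 (SE 0.81, adjusted p = 0.0158, edgeR) against SHH MB. Snora73b, the near-identical second copy, had 725, 148, 31.8 and 61.8 CPM in the tumors, at most 27.5 CPM in the P7 cerebella and at most 14.7 CPM in SHH MB. For both copies all tumors exceeded all controls, with tumor 3 nearest to P7 cerebellum 1. Snora74a, held by Snhg4, was called higher in both comparisons too (log2 fold changes of 3.24 and 3.93, adjusted p = 0.0364 and 0.0208, edgeR).

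Among the guide snoRNAs of intronic origin, the lowest p-values for box C/D against P7 cerebella belonged to Snord100 and Snord96a. Snord100 had 5.21, 6.48, 4.90 and 5.49 CPM in tumors 1 to 4, 0.817, 0.328 and 0.428 CPM in the P7 cerebella and 1.87, 1.06 and 1.56 CPM in SHH MB. Here the 4 tumors differed little from each other, in contrast to U3 and U17. Its log2 fold change was 3.34 (SE 0.51, adjusted p = 0.00516, edgeR) against P7 cerebella and 1.88 (SE 0.47, adjusted p = 0.0378, edgeR) against SHH MB. Snord96a, within Rack1, a gene for a ribosome-associated protein, had 9.42, 5.94, 5.6 and 5.0 CPM in the tumors and 1.23, 1.86 and 1.28 CPM in the P7 cerebella (log2 fold change 2.13, SE 0.43, adjusted p = 0.0169, edgeR). Against SHH MB, with 2.18, 2.95 and 3.27 CPM, it did not pass the test although the groups were separate (log2 fold change 1.20, adjusted p = 0.122, edgeR). Snord16a, within Rpl4, had 25, 20, 14 and 12 counts in the tumors, 1, 3 and 0 counts in the P7 cerebella and 4, 13 and 7 counts in SHH MB (adjusted p = 0.0181 and 0.234, edgeR). Snord15a, within Rps3, was called higher in both comparisons (log2 fold changes of 2.23 and 2.41, adjusted p = 0.0303 and 0.0251, edgeR).

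For box H/ACA, Snora44, Snora16a and Snora64 had the lowest p-values against P7 cerebella. Snora16a had 20.6, 16.2, 6.30 and 6.22 CPM in tumors 1 to 4, 1.02, 0.546 and 1.71 CPM in the P7 cerebella and 2.49, 1.53 and 1.42 CPM in SHH MB. Its log2 fold change was 3.49 (SE 0.59, adjusted p = 0.00897, edgeR) against P7 cerebella and 2.75 (SE 0.57, adjusted p = 0.0177, edgeR) against SHH MB. Snora64, within the ribosomal protein gene Rps2, had 13.6, 10.4, 5.6 and 3.78 CPM in the tumors and at most 0.999 CPM in the P7 cerebella and 1.56 CPM in SHH MB. No tumor overlapped with a control for either gene, and an exact two-sided permutation test gave p = 0.0286 in both comparisons for both. Snora3, within Rpl27a, and Snora17, within Snhg7, were called higher against P7 cerebella with log2 fold changes of 3.59 and 2.91 (adjusted p = 0.0128 and 0.0141, edgeR) but not against SHH MB (adjusted p = 0.0699 and 0.0881, edgeR).

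**Figure D3:**
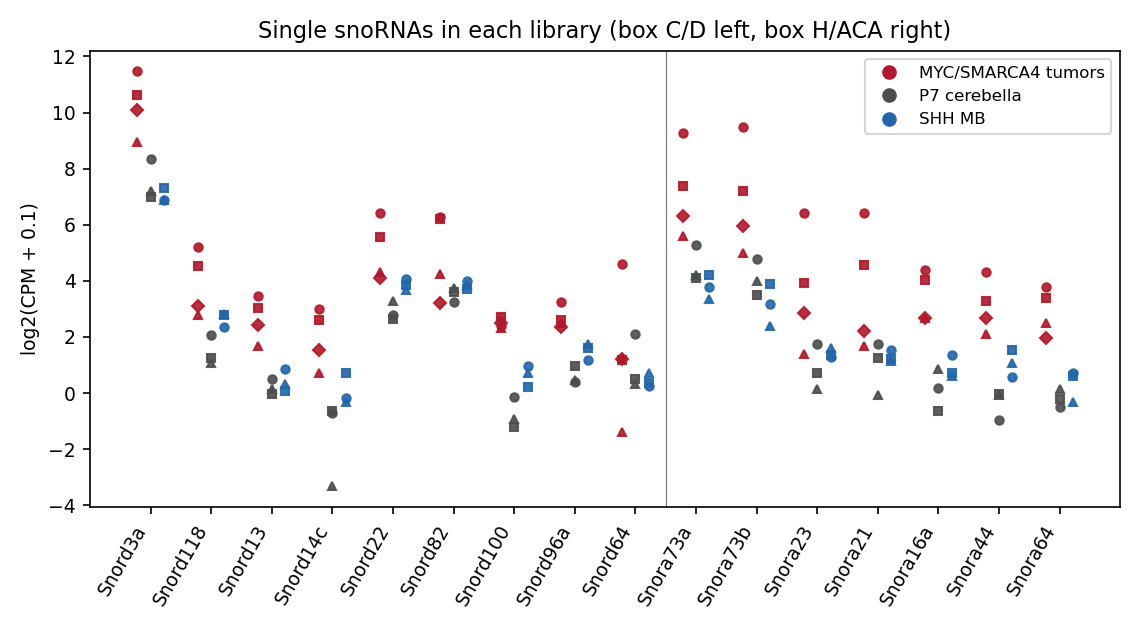
log2(CPM + 0.1) of 16 single snoRNAs in each library, box C/D on the left and box H/ACA on the right, with colors for the groups and marker shapes for replicate numbers. Snord3a reaches 2825 CPM in tumor 1, and Snord100 shows tumors close together at 4.90 to 6.48 CPM while Snora73b spans 31.8 to 725 CPM.

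Groups of snoRNAs from one host were compared where at least 4 members shared it. Snhg12, a noncoding host gene, holds Snora16a, Snora44, Snora61 and Snord99, which together had 70.4, 44.6, 18.2 and 27.9 CPM in the tumors, 5.72, 2.29 and 6.28 CPM in the P7 cerebella and 6.07, 8.37 and 8.38 CPM in SHH MB. The 3 box H/ACA members were called higher in both comparisons and the box C/D member Snord99 in neither (log2 fold changes of 1.89 and 1.94, adjusted p = 0.128 and 0.158, edgeR), although a difference between members was not tested. Rpl13a, a ribosomal protein gene, holds Snord32a, Snord33, Snord34 and Snord35a, with a sum of 8.25 to 31.2 CPM in the tumors, 1.14 to 3.49 CPM in the P7 cerebella and 4.36 to 6.25 CPM in SHH MB. Only Snord32a was called, against P7 cerebella (log2 fold change 3.63, SE 0.82, adjusted p = 0.0244, edgeR), and Snord33 did not pass the filter.

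The imprinted brain snoRNAs showed another picture. Snhg14 holds 17 Snord116 copies of the Prader-Willi locus, none of which passed the filter, and 9 had no count in any library. Their sum was 2.98, 0.90, 0.98 and 0.854 CPM in the tumors, 1.23, 0.655 and 1.71 CPM in the P7 cerebella and 0.778, 0.354 and 0.71 CPM in SHH MB. Of these copies, 14 have 30 identical loci in the genome, so their reads cannot be placed, and a difference was not detectable at this depth. Snord64, from the same chromosomal domain, had 98, 12, 2 and 18 counts in the tumors, 41, 12 and 8 in the P7 cerebella and 7, 10 and 11 in SHH MB. Its groups overlapped, and it was not called against P7 cerebella (log2 fold change 1.64, SE 1.05, adjusted p = 0.327, edgeR). Without tumor 1 its log2 fold change was -0.52. Snora35, within the serotonin receptor gene Htr2c, was the only member with fewer counts in every tumor than in any P7 cerebellum or SHH MB library, with 0, 0, 1 and 0 counts against 5, 2 and 9 and 5, 3 and 6, and was too low to be tested. Its host Htr2c was called lower in both comparisons (log2 fold changes of -3.22 and -2.87, adjusted p = 0.00205 and 0.00244, edgeR). Choroid plexus markers were at 0.0496 to 0.0916 times the P7 mean in the tumors, and their part in the Snora35 counts was not tested. Snord88a, Snord88c and Snord90 did not pass the filter either, with 1 to 19, 2 to 7 and 3 to 27 counts in the tumors and at most 4 counts in a P7 cerebellum. Snord107, Snord113, Snord114 and Snord115 were not analysed here.

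Against SHH MB, the comparison of the 2 tumor models, 7 box C/D and 11 box H/ACA snoRNAs were called higher in the MYC/SMARCA4 tumors and none lower, while 2.43% of all genes tested were called higher and 2.26% lower. The called box C/D members were Snord3a, Snord3b-ps1, Snord3b-ps2, Snord13, Snord15a, Snord15b and Snord100, so 4 of 7 were U3 or U13 genes. The called box H/ACA members included both copies of U17, Snora74a, Snora7a and Snora64. The median log2 fold change was 1.80 over the tested box C/D members and 2.61 over the tested box H/ACA members, with 0.008 over all genes tested. In 22 and 18 of them, respectively, no tumor overlapped with an SHH MB library, against 7.83% of all genes tested above and 8.3% below. All 78 tested members, some of which the tumor counts alone brought past the filter, had a positive log2 fold change (50.4% of all genes tested). Among members that pass the filter without the tumors, 5 of 24 box C/D and 9 of 21 box H/ACA snoRNAs were called higher. The share over all genes was not computed for this selection. At an unadjusted p under 0.05 there were 38 and 25 members, against 12.7% of all genes higher and 7.1% lower, and the stricter rule left 1 and 0 (0.124% of all genes higher and 0.477% lower). Without SHH MB library 1, 2 or 3 the counts fell to 0, 1 and 0 for box C/D and to 0 in all 3 fits for box H/ACA, and without tumor 3 they were 29 and 21. Without tumor 2 they were 3 and 6, and without P7 cerebellum 1, 2 or 3 they were 5 and 6, 5 and 7, and 5 and 7. The medians of those 10 fits ranged from 1.41 to 1.90 for box C/D and from 1.96 to 2.79 for box H/ACA.

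Between SHH MB and P7 cerebella, none of the 78 tested snoRNAs was called by edgeR or by DESeq2, as 0.177% of all genes tested were called higher by edgeR and 0.0467% lower. At an unadjusted p under 0.05 there were 6 box C/D and 1 box H/ACA snoRNAs, against 5.16% of all genes higher and 3.64% lower. The median log2 fold change was 0.61 for box C/D and 0.73 for box H/ACA, with -0.09 over all genes tested. It was positive for 39 of 51 and 19 of 27 members (43.8% of all genes tested), and 16 and 8 members were separate and higher in SHH MB, 0 and 0 lower (17.8% and 19% of all genes tested). The stricter rule called no member, compared with 0.01% of all genes higher. With only these 2 groups in the fit, 4 box C/D and 3 box H/ACA snoRNAs were called higher and 1 and 3 lower. When each class was split into U3 or U17 and the rest, only box C/D without U3 was separate between SHH MB and P7 cerebella. U3 genes summed to 125, 170 and 119 CPM in SHH MB and to 343, 134 and 151 CPM in the P7 cerebella, which overlapped. All other box C/D genes summed to 120, 134 and 138 CPM in SHH MB and to 93.5, 76.3 and 84.6 CPM in the P7 cerebella, without overlap. U17 summed to 22.6, 33.4 and 15.2 CPM in SHH MB and to 65.8, 28.3 and 34.4 CPM in the P7 cerebella, which overlapped. All other box H/ACA genes overlapped too, with 60.5, 70.5 and 59.1 CPM in SHH MB and 66.2, 41.05 and 58.2 CPM in the P7 cerebella.

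The 4 tumors differed widely from each other. Relative to the mean of the P7 cerebella, the box C/D sum was 14.4, 7.80, 2.41 and 4.66 times as high in tumors 1 to 4 and the box H/ACA sum 27.0, 8.13, 2.01 and 3.14 times. The ratio of box C/D to box H/ACA counts, which no scaling of the library changes, was 1.60, 2.88, 3.60 and 4.46 in tumors 1 to 4, compared with 2.55 to 3.31 in the P7 cerebella and 2.93 to 3.47 in SHH MB. Tumor 1 lay below the range of the 6 controls, and tumors 3 and 4 lay above it. Without U3 and U17 the ratio was 0.779, 1.16, 1.59 and 1.35 in tumors 1 to 4 and 1.41 to 2.34 in the controls, so that tumor 4 then lay below all controls and tumor 3 within their range. Among members with a mean of at least 20 counts in the tumors, 31 of 35 box C/D and 21 of 23 box H/ACA snoRNAs were highest in tumor 1. In tumor 3, 25 and 16 were lowest. How often other genes took these ranks was not counted, so the numbers have no baseline. The ranks and the ratios by length below use CPM scaled by factors of 0.619 for tumor 1 and 1.28 for tumor 3. These factors raise tumor 1 against tumor 3 for every gene.

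The spread among the tumors was set out by length, as bin medians with no test of a difference. Among those members, the CPM in tumor 1 was a median of 4.10 times that in tumor 3 for 25 box C/D snoRNAs under 120 bases, 5.5 times for 5 of 120 to 160 bases and 13.6 times for 5 over 160 bases. In box H/ACA the medians were 6.07 times for 18 snoRNAs of 120 to 160 bases and 19.5 times for 5 over 160 bases. The highest single ratio, 86.8, belonged to Snord64, which has 67 bases. The bins over 160 bases hold 4 U3 genes and Snord17 for box C/D, and both U17 copies, Snora74a, Snora23 and Snora81 for box H/ACA, so they are small. Snord17, within Snx5, had 182, 67.8, 6.30 and 22 CPM in tumors 1 to 4, 16.6, 9.17 and 9.42 CPM in the P7 cerebella and 9.33, 13.1 and 5.96 CPM in SHH MB, so tumor 3 fell below all P7 cerebella, and it was not called (adjusted p = 0.0856 and 0.078, edgeR). Snora23, within Ipo7, had 85.0, 14.9, 2.52 and 7.20 CPM in the tumors and 3.27, 1.53 and 0.999 CPM in the P7 cerebella. Snora21, within Rpl23, and Snord94, within Ptcd3, had the same order, from 85.3 and 57.5 CPM in tumor 1 to 3.08 and 2.10 CPM in tumor 3. Short Snord82, within the nucleolin gene Ncl, had 76.8, 74.2, 18.8 and 9.15 CPM in the tumors and 9.50 to 13.3 CPM in the P7 cerebella, with tumor 4 below all of them (adjusted p = 0.0742 against P7 cerebella, edgeR).

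Sums of mature granule neuron, Purkinje cell, oligodendrocyte and endothelium markers and of other small noncoding RNAs followed the order of the snoRNA sums over the tumors. Granule cell lineage, astrocyte, microglia, erythrocyte and choroid plexus markers and the share of counts resembling rRNA did not. Mature granule neuron markers (6 genes) summed to 6648, 1926, 236 and 1183 CPM in tumors 1 to 4 and to 710 to 789 CPM in the P7 cerebella, and Purkinje cell markers (6 genes) to 10920, 2592, 340 and 1803 CPM and to 1190 to 1336 CPM. Oligodendrocyte markers summed to 3909, 779, 104 and 415 CPM in the tumors and to 919 to 1098 CPM in the P7 cerebella. For each of these lists, tumor 1 was above and tumor 3 below every P7 cerebellum. Astrocyte and Bergmann glia markers (98.6 to 871 CPM in the tumors, 1570 to 1626 CPM in the P7 cerebella) and choroid plexus markers (40.2 to 74.1 and 579 to 1171 CPM) were lower in every tumor. The sums of microglia (37.4 to 146 and 65.8 to 66.6 CPM), endothelium (92.9 to 289 and 183 to 198 CPM) and erythrocyte markers (37.8 to 196 and 90.5 to 136 CPM) overlapped. A list of 16 other small noncoding RNAs, led by the 7SK RNA (Rn7sk), the RNase MRP RNA (Rmrp) and the RNase P RNA (Rpph1), summed to 34750, 14650, 3821 and 8749 CPM in the tumors, 4642 to 7897 CPM in the P7 cerebella and 2325 to 3864 CPM in SHH MB. Myc was in the reverse order of both class sums, lowest in tumor 1 and highest in tumor 3. Counts resembling rRNA made up 1.54%, 1.12%, 0.809% and 0.426% of tumors 1 to 4, at most 0.174% of a P7 cerebellum and 0.479 to 0.694% of SHH MB. The part of these measures in the snoRNA values was not tested.

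**Figure D4:**
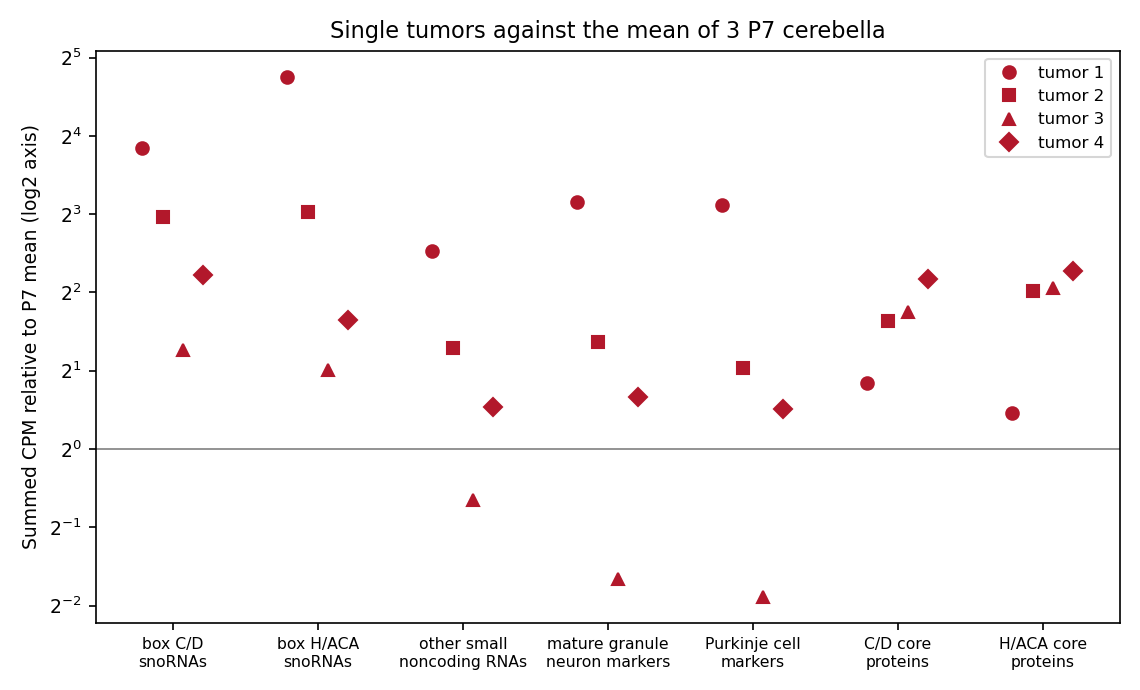
Summed CPM of each list in tumors 1 to 4 divided by the mean of the 3 P7 cerebella, on a log2 axis with a line at the P7 mean. Both snoRNA classes are above the line in all 4 tumors (2.01 to 27.0 times), neuron markers and other small noncoding RNAs fall below it in tumor 3, and RNA for the core proteins of the snoRNA particles is lowest in tumor 1.

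RNA for 6 of the 8 core proteins of the snoRNA particles was called higher than in the P7 cerebella, with another order of the tumors. Core proteins of box C/D summed to 169, 291, 316 and 423 CPM in tumors 1 to 4, 83.4 to 109 CPM in the P7 cerebella and 171 to 180 CPM in SHH MB, and those of box H/ACA to 99.2, 292, 301 and 348 CPM, 64.8 to 79.2 CPM and 109 to 115 CPM. Against P7 cerebella 3 of 4 box C/D core genes were called higher, Fbl, Nop56 and Nop58 (log2 fold changes of 1.42, 1.58 and 1.88, adjusted p = 0.0386, 0.011 and 0.0114, edgeR), and 3 of 4 box H/ACA core genes, Dkc1, Gar1 and Nhp2 (2.38, 1.90 and 1.85, adjusted p = 0.00467, 0.0182 and 0.0321, edgeR). Snu13 (log2 fold change 1.49, adjusted p = 0.0907, edgeR) and Nop10 (0.73, adjusted p = 0.212, edgeR) did not pass. None of the 8 core genes passed against SHH MB. Of 13 assembly and trafficking genes, Nufip1, Shq1, Nolc1, Tcof1 and Rrp9, the last encoding a protein of the U3 particle, were called higher against P7 cerebella, and only Rrp9 against SHH MB (log2 fold change 1.64, adjusted p = 0.0308, edgeR).

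snoRNAs and their host genes are read from the same transcript, so their fold changes were set side by side. For 68 tested snoRNAs with a tested host (48 hosts, U3, U8 and U13 left out), the median log2 fold change against P7 cerebella was 2.92 for the snoRNAs and 1.40 for their hosts, and the snoRNA value was above that of its host in 63 of 68 pairs. Against SHH MB the medians were 1.97 and 1.02, with the snoRNA above in 64 of 68. Since tumor counts alone can bring a snoRNA past the filter, the pairs were also limited, after seeing the data, to snoRNAs that pass it without the tumors. Of 38 such pairs the snoRNA was above its host in 35 against P7 cerebella (medians of 2.94 and 1.46) and in 36 against SHH MB (2.17 and 1.20). Across the pairs the fold changes were hardly related (Pearson's r = 0.08 and 0.06 over 68 pairs, which share libraries and partly hosts). For instance, Snord14c, Snord14d and Snord14e differed by 2.93 to 3.53 while their host Hspa8 differed by 0.25 (adjusted p = 0.574, edgeR). Snora73a and Snora73b differed by 3.22 and 3.73 with 1.46 for Rcc1 (adjusted p = 0.101, edgeR), the protein-coding gene taken as their host. Snora73a also overlaps an exon of Snhg3, which was not compared, so this contrast holds for Rcc1 only. An exception was Snord69 (2.61), whose host Gnl3 differed by 2.67. Grouped by host, 18 of 25 tested snoRNAs of ribosomal protein genes, 13 of 19 of noncoding hosts and 13 of 27 of other protein-coding genes were called higher against P7 cerebella, with medians of 3.27, 2.76 and 2.91. Against SHH MB the calls were 7, 5 and 2, with medians of 2.08, 1.94 and 2.06. Of all genes tested, 3.99% were called higher against P7 cerebella and 2.43% against SHH MB. Tumor counts alone can bring members of these groups past the filter, and differences between the host groups were not tested. Both U17 copies were counted under other protein-coding genes, by their host Rcc1.

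**Figure D5:**
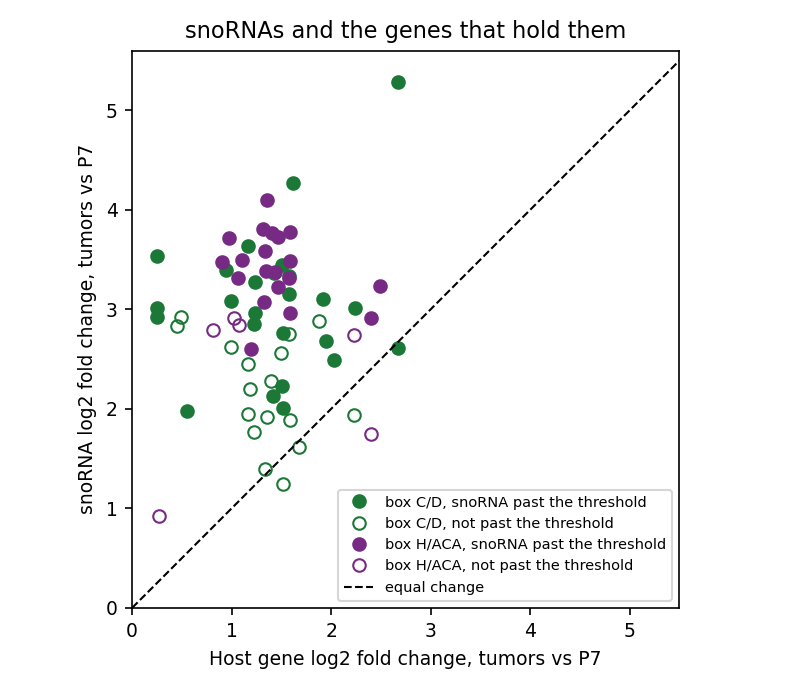
log2 fold change of tumors against P7 cerebella for 68 snoRNAs (vertical axis) and for the gene that holds each of them (horizontal axis), by box class, with filled points for snoRNAs past an adjusted p of 0.05 and a dashed line of equal change. Points lie above the line for 63 of 68 pairs.

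Of the 140 members, 88 overlap an exon of another gene in the annotation, and how reads over both were assigned is not given in the sources used here. Restricted to tested members without such overlap, 8 of 17 box C/D and 2 of 5 box H/ACA snoRNAs were called higher against P7 cerebella, with medians of 2.83 and 3.47. Among the 62 members that were not tested, 20 had no count in any library, and the remaining ones summed to at most 95 counts each.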

How the data were processed

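RNA of FFPE tissue was sequenced after depletion of rRNA with a total RNA kit (1 × 75 bp). Per the submitters' notes the authors used Trimmomatic (0.38.1), STAR (2.7.8a), featureCounts (2.0.1) and the DESeq2 Galaxy wrapper (2.11.40.7) on GRCm39; annotation, strand setting and the treatment of multi-mapping reads are not given in the sources used here. The authors deposited raw counts per gene and sample, and a table of variance-stabilized log2 values, which served as an alternative only. Levels of single genes were ranked per kilobase, while class sums, shares and ratios are of counts without a length term and were compared between libraries. Recovery of short RNA from FFPE tissue can depend on length, and neither measure corrects for that.

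Counts were analyzed with edgeR (4.0.16, R 4.3.3): filterByExpr by group, TMM factors and a quasi-likelihood test over all 10 libraries in 3 comparisons, with Benjamini-Hochberg adjustment over 29952 genes. This fit was tested on simulated data. Exact two-sided permutation tests used log2 CPM with a prior count of 2. Total counts were 5663491 to 9352109, and the limit allowed by a count of 0 (3 counts over the TMM-scaled library size) was 0.307 to 0.744 CPM. Labels do not state that P7 cerebella and SHH MB are separate animals, so p-values cover the spread between these samples, which may be technical. Positions, hosts and exon overlap came from GENCODE vM39. Where several genes held a snoRNA, a protein-coding one was taken as its host. Members and lists were chosen with earlier results of these data known. Named snoRNAs were, per class, the 5 lowest p-values among non-overlapping calls of each tumor comparison. Also named, per class, were the 3 most abundant per length and the 3 widest among the tumors. snoRNAs with roles in rRNA processing, imprinted and brain snoRNAs, and groups of at least 4 in a host were named too. Snord69, Snora7a and Snord15b fall outside this choice and were chosen after their values were seen. Snora81 falls outside as well and is named only as a member of a length bin. Alternatives used DESeq2 (1.42.0), limma (3.58.1), other scaling, filters and left-out libraries.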

Additional observations from a re-analysis of the deposited data

Results flagged for a closer look

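Of 49 sets of values over the 4 tumors that were tested with Dixon's criterion, 9 had a tumor far from the others. Independent sets of normally distributed values would give about 1 in 20. These sets come from the same 4 libraries and some hold few counts, so 9 of 49 cannot be set against that rate. Tumor 1 was far above the others for Snora23 (85.0 CPM), Snora73b (725 CPM), Snord3b2 (38.2 CPM), Snord64 (24.3 CPM), Snord90 (6.69 CPM), Snord14a (2.73 CPM) and Snord116l12 (2.23 CPM). Tumor 3 was above the others for Snord3b4 (1.26 CPM) and Snord116l14 (0.56 CPM), both near the lowest level that could be told from 0. Snord3b2 and Snord3b4 are identical to other loci, and both Snord116 copies have near-identical loci (at least 95% of bases). The sums of both classes did not meet the criterion. No explanation was tested.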

How the results depend on the processing

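Fold changes were steadier than calls. The class medians kept a positive sign in both tumor comparisons under all 20 alternatives. Against P7 cerebella the calls higher in box C/D and box H/ACA (29 and 20) became 14 and 10 with total counts, 52 and 28 with DESeq2, 24 and 11 with limma on the deposited log2 values, 1 and 3 with only the 2 groups compared, 8 and 2 without exon overlap (fewer members tested) and 1 and 3 at the study's thresholds (log2 fold change of at least 2.5, adjusted p of at most 0.01). Against SHH MB (7 and 11) they became 5 and 6 with total counts, 27 and 21 with DESeq2, 6 and 7 with limma, 3 and 0 with only the 2 groups compared, 3 and 1 without exon overlap and 1 and 0 at the study's thresholds. The DESeq2 calls were taken from 86 box C/D and 34 box H/ACA members and the limma calls from 81 and 33. The main fit tested 51 and 27, so these counts of calls are not like for like. Leaving out one library gave 0 to 42 and 0 to 26 against P7 cerebella, and 0 to 29 and 0 to 21 against SHH MB; the fewest came without a library of the control group compared, and without tumor 2 they were 17 and 10, and 3 and 6. Without SHH MB library 1, 2 or 3 the calls against P7 cerebella were 16 and 9, 15 and 8, and 15 and 9, and without P7 cerebellum 1, 2 or 3 the box H/ACA calls against SHH MB were 6, 7 and 7. Between SHH MB and P7 cerebella, only the fit of these 2 groups made calls, 4 higher and 1 lower in box C/D and 3 higher and 3 lower in box H/ACA. Total counts moved the median of all genes to -0.42 against P7 cerebella and -0.22 against SHH MB.

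Equal replicate numbers did not pair the samples (correlations of deviations from -0.27 to 0.16). With the replicate number as a block, the calls were 7 and 8 against P7 cerebella and 4 and 7 against SHH MB.

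The small log2 differences of the class sums between SHH MB and P7 cerebella (-0.06 for box C/D, -0.13 for box H/ACA) turned to 0.53 and 0.023 without the most abundant member and to 0.26 and 0.56 without exon overlap. The log2 difference in the ratio of box C/D to box H/ACA was -0.01 against P7 cerebella and -0.08 against SHH MB; it turned to 0.076 and 0.37 without exon overlap and was -0.78 against SHH MB without the most abundant members. Against P7 cerebella, the log2 fold change of Snord3b3 (-0.01) changed sign with RLE factors (0.014) and DESeq2 (0.042), and ranged from -0.393 to 0.524 when one library was left out. That of Snord64 was -0.521 to 2.507 when one library was left out, negative without tumor 1. Leaving out one tumor, the ratio of mean class sums was 4.96 to 8.94 for box C/D and 4.43 to 12.8 for box H/ACA against P7 cerebella, and 5.42 to 9.78 and 4.98 to 14.4 against SHH MB, lowest each time without tumor 1. The causes were not tested. Depth limits the comparison for the 62 untested members.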

Other observations

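Of the 16 other small noncoding RNAs in the files, 14 were tested, and few passed. Against P7 cerebella, Rnu11, an RNA of the minor spliceosome, and the vault RNA Vaultrc5 were called higher (log2 fold changes of 3.47 and 3.52, adjusted p = 0.0281 and 0.0114, edgeR). Rn7sk, Rmrp and Rpph1 had log2 fold changes of 1.45, 1.34 and 1.26 and did not pass (adjusted p = 0.223, 0.206 and 0.181, edgeR). Against SHH MB, the Cajal body RNAs Scarna13 and Scarna17, Rpph1 and the telomerase RNA Terc were called higher (2.12, 1.48, 2.44 and 3.19, adjusted p = 0.0332, 0.0192, 0.0334 and 0.0277, edgeR). Terc and Scarna17 were not highest in tumor 1: Terc, which carries an H/ACA domain, had 14, 62, 42 and 171 counts in tumors 1 to 4, and Scarna17 had 84, 202, 245 and 223 counts.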
